A study of Mus musculus with 4 samples.

Results

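The Zfp genes are the mouse zinc finger genes whose symbol is Zfp followed by a number. Of 305 such genes with a probe set on the array, 150 were taken as expressed in follicular helper CD4+ T (TFH) cells, out of 18193 genes tested in all. They were selected on their signal: the brightest probe set of the gene had to reach a mean intensity of 50 over the 4 arrays, on the linear scale of the deposited values. The mean was taken over both genotypes together, so the choice did not use the difference between them.

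The arrays compared TFH cells sorted from the spleen at day 8 after LCMV Armstrong infection, 2 from Rictor-null and 2 from wildtype (WT) mice. Rictor-null mice (Rictor-/- in the study) carry Rictor fl/fl alleles and a Cre transgene driven by the Cd4 promoter, so that Rictor is lost from T cells of both the CD4 and the CD8 lineage, while their WT littermates carry Rictor fl/fl without Cre. The animals were young adults of both sexes, and every array held RNA pooled from at least 5 mice according to the series description, whereas a legend of the study gives a smaller number for the WT group. The series title calls the cells LCMV-specific, and the methods describe the sort only as TFH cells. Rictor is the subunit that defines mTOR complex 2 (mTORC2), and the comparison asked which transcripts depend on it.

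The symbol Zfp joins proteins of unlike function. Most hold tandem C2H2 zinc fingers that read DNA, and many of these also carry a KRAB domain, which recruits the co-repressor TRIM28 and with it the histone methyltransferase SETDB1, best known for silencing retroelements. KRAB zinc finger genes have multiplied by tandem duplication and stand in clusters of neighbouring copies. Other members, such as Zfp36, bind RNA and act in mRNA decay.

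The promoters shown first belong to the members on which the results below turn. They are Zfp560, which had the largest rise, Zfp946, which fell beside a neighbour that rose, and the stretches between the start sites of the head-to-head pairs Zfp944 and Zfp758, and Zfp942 and Zfp943. All come from RefSeq on GRCm38.p6, and capitals mark exact matches on either strand to the GC box GGGCGG, the ETS core CCGGAAG or the E-box CACGTG. These motifs were chosen after the values were seen, and a match is a description of the letters, not a binding site.
Zfp560, the 250 bases before the start, chr9:20385159-20385408, minus strand: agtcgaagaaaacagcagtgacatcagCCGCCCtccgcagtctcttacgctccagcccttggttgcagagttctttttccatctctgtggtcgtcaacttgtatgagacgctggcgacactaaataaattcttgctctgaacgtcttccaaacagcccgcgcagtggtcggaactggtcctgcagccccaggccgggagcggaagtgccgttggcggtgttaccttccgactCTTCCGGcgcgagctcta
Zfp946, the 250 bases before the start, chr17:22423952-22424201, plus strand: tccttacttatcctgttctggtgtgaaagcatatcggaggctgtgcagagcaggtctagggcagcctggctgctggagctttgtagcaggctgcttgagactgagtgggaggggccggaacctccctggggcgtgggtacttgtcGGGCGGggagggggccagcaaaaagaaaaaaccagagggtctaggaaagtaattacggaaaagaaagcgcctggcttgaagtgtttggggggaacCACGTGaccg
Zfp944 to Zfp758, between the starts, chr17:22361401-22361462, plus strand: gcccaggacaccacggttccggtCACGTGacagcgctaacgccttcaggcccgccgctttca
Zfp942 to Zfp943, between the starts, chr17:21962465-21962558, plus strand: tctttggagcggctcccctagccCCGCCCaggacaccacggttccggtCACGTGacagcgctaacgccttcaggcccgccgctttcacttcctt

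The labels were checked against Rictor and the markers of the sorted cells. The brightest of 5 Rictor probe sets read 267 and 279 in Rictor-/- TFH cells and 334 and 303 in WT TFH cells, a log2 difference of -0.21 (SE 0.06, adjusted p = 0.0366). The mean of its probe sets gave -0.01 (adjusted p = 0.900), the single probe sets ran from -0.21 to 0.11, and whether any of them lies in the deleted exons was not tested. Its call was also lost without Rictor-/- replicate 1 (-0.18, adjusted p = 0.159), WT replicate 1 (-0.14, adjusted p = 0.297) or WT replicate 2 (-0.28, adjusted p = 0.0824). TFH genes were present in every array, Cxcr5, the follicle homing receptor, at 503 and 505 against 847 and 812, and 7 of 8 TFH markers were lower in Rictor-/- TFH cells. All 8 reached a mean of 200, where 906 of 4444 genes were lower. Icos, the marker that was not called, differed by 0.003. Arrays of 1 genotype correlated at 0.9986 or above and arrays of unlike genotype at 0.9937 to 0.9944. A p here rests on the spread between 2 pools per genotype, and the fit draws each gene's spread towards that of genes of like intensity. It does not measure the spread between mice.

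In the comparison of the genotypes, 38 of the 150 expressed Zfp genes (25.3%) rose without Rictor and 18 (12%) fell, while 94 did not pass the test (limma, adjusted p under 0.05). Over all 18193 genes, 12.5% were higher and 7.19% lower. That background holds many dim genes, and among the 8156 genes that reached the same intensity of 50, 23.6% were higher and 14.2% lower. The probe sets of the expressed Zfp genes were dimmer than that set, with a median intensity of 114 against 225. At 50 to 200, 30 of 112 members (26.8%) were higher and 10 (8.93%) lower, where 19% of all genes in that range were higher and 6.82% lower. At 200 or more, 8 of 38 (21.1%) were higher and 8 lower, where 1222 and 906 of 4444 genes were. Over all members the median log2 difference was 0.08, against 0.03 for all genes at 50 or more, with a range from -0.42 to 0.62.

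The changes were small. The counts fell most when a WT array was left out, where the spread comes from the 2 Rictor-/- arrays alone. The median log2 difference of the members stayed between 0.067 and 0.090 whichever array was left out. Without WT replicate 1 the fit called 6 members higher and 3 lower, and without WT replicate 2 it called 5 and 3, while the calls over all genes fell from 2283 higher and 1308 lower to 1005 and 457, and to 930 and 494. Without Rictor-/- replicate 1 the counts were 23 and 11, and without replicate 2 they were 26 and 12. The 5 members called in every other limma fit were Zfp560, Zfp958, Zfp277, Zfp217 and Zfp362.

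**Figure D1:**
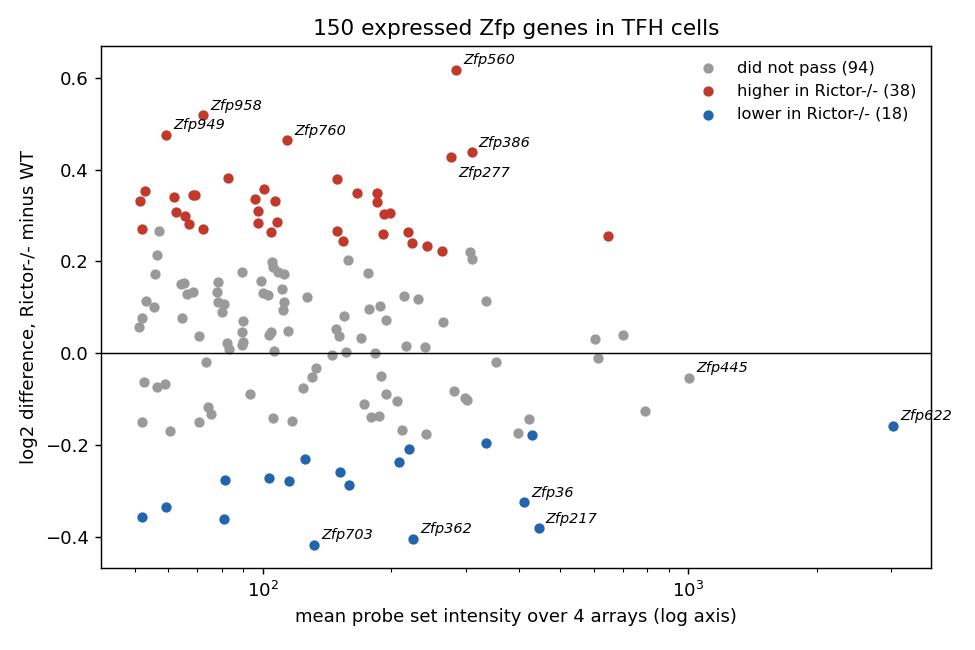
Each point is 1 of the 150 expressed Zfp genes, placed by its mean probe set intensity over 4 arrays (log axis) and its log2 difference, Rictor-/- minus WT. The 38 members called higher, the 18 called lower and the 94 that did not pass are coloured apart, and Zfp560 at 0.62 and Zfp703 at -0.42 are the ends of the range.

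Zfp560 rose the most. Its probe set read 375 and 321 in Rictor-/- TFH cells and 211 and 231 in WT TFH cells. Both Rictor-/- arrays stood well above both WT arrays, and the log2 difference was 0.62 (SE 0.08, adjusted p = 0.000102). A dimmer probe set of the gene differed by -0.18, and the mean of both gave 0.22. Its neighbour on one side is Zfp26.

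Zfp958 read 88.0 and 88.2 in Rictor-/- against 61.1 and 52.5 in WT TFH cells, a log2 difference of 0.52 (SE 0.09, adjusted p = 0.000941). Zfp277, known for bringing the Polycomb protein BMI1 to the Ink4a/Arf locus, read 319 and 321 against 241 and 227, a log2 difference of 0.43 (SE 0.06, adjusted p = 0.000253). In both genes the Rictor-/- arrays nearly coincided and the groups were apart. A second Zfp277 probe set, at a mean of 73.7, differed by -0.01.

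Zfp949 rose from 49.4 and 44.6 in WT to 75.3 and 68.1 in Rictor-/- TFH cells, so that its WT mean lay below the intensity of 50. Its call was lost without WT replicate 2 (log2 difference 0.42). Zfp760 stood at 155 and 116 against 91.4 and 93.8. Its call was lost without Rictor-/- replicate 1 (log2 difference 0.28), WT replicate 1 (0.45) or WT replicate 2 (0.48). Zfp386 stood at 317 and 402 against 256 and 263, and its call was lost without WT replicate 1 (0.42) or WT replicate 2 (0.46). The 2 Rictor-/- arrays of Zfp760 and of Zfp386 lay further apart from each other than the WT arrays did. The log2 differences were 0.48 for Zfp949, 0.46 for Zfp760 and 0.44 for Zfp386, and the mean of both Zfp386 probe sets, 0.37, did not pass (adjusted p = 0.146).

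Zfp101 and Zfp764 complete the 8 largest rises. Zfp101 read 102 and 90.1 against 67.7 and 71.8, with a log2 difference of 0.38. The call of Zfp101 was lost without Rictor-/- replicate 1 (0.31), WT replicate 1 (0.35) or WT replicate 2 (0.42). Zfp764 read 181 and 162 against 130 and 126, also 0.38 on the log2 scale. Its call was lost without WT replicate 1 (0.40) or WT replicate 2 (0.36). The Zfp764 probe set is of the _x_at kind, whose probes can match more than 1 transcript.

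Such probe sets were unevenly called among the members. Of the 10 members read by an _x_at probe set, 7 were higher and 1 was lower, while over the 377 such genes at 50 or more 21.8% were higher and 16.2% lower. The risen ones were Zfp764, Zfp931, Zfp995, Zfp110, Zfp593, Zfp982 and Zfp825. Whether these probe sets read related Zfp transcripts as well was not tested. With all _x_at probe sets left out, 33 members were higher and 17 lower.

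The largest fall was that of Zfp703, a co-repressor known from luminal breast cancer. It read 114 and 108 in Rictor-/- and 155 and 151 in WT TFH cells, a log2 difference of -0.42 (SE 0.07, adjusted p = 0.00102). The groups were apart by more than their spread, but the mean of its 3 probe sets was -0.10 and did not pass (adjusted p = 0.293). Zfp362 read 197 and 186 against 261 and 256, a log2 difference of -0.40 (SE 0.06, adjusted p = 0.000551). This gene has a single probe set.

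Zfp217, an oncogene product that works with the CtBP and CoREST co-repressors, read 370 and 399 in Rictor-/- and 518 and 492 in WT TFH cells. Both WT arrays were above both Rictor-/- arrays, and the log2 difference was -0.38 (SE 0.06, adjusted p = 0.000473). Zfp827, known for bringing the NuRD complex to telomeres, read 68.0 and 69.8 against 90.2 and 96.1. Its log2 difference was -0.36 (SE 0.08, adjusted p = 0.00591). The call of Zfp827 was lost without WT replicate 1 (-0.40) or WT replicate 2 (-0.32).

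Zfp36 encodes tristetraprolin (TTP), which binds AU-rich elements of cytokine mRNAs and brings about their deadenylation. It read 386 and 339 in Rictor-/- and 464 and 451 in WT TFH cells, with a log2 difference of -0.32 (SE 0.06, adjusted p = 0.00312). Zfp574 read 141 and 142 against 177 and 177, a log2 difference of -0.29. The mean of the 3 probe sets of Zfp574 was -0.09 and did not pass (adjusted p = 0.300). The call of Zfp574 was also lost without WT replicate 1 (-0.29) or WT replicate 2 (-0.29).

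Zfp946 and Zfp710 were the dimmest of the 8 largest falls. Zfp946 read 41.7 and 45.4 against 57.0 and 63.5, so that it reached the intensity of 50 only through its WT arrays, and Zfp710 read 44.9 and 56.1 against 72.8 and 62.8. Their log2 differences were -0.36 and -0.34. Without Rictor-/- replicate 1, Zfp946 stood at -0.31 and Zfp710 at -0.21, and neither passed. Both calls were also lost without WT replicate 1 (-0.42 and -0.25) or WT replicate 2 (-0.30 and -0.42).

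**Figure D2:**
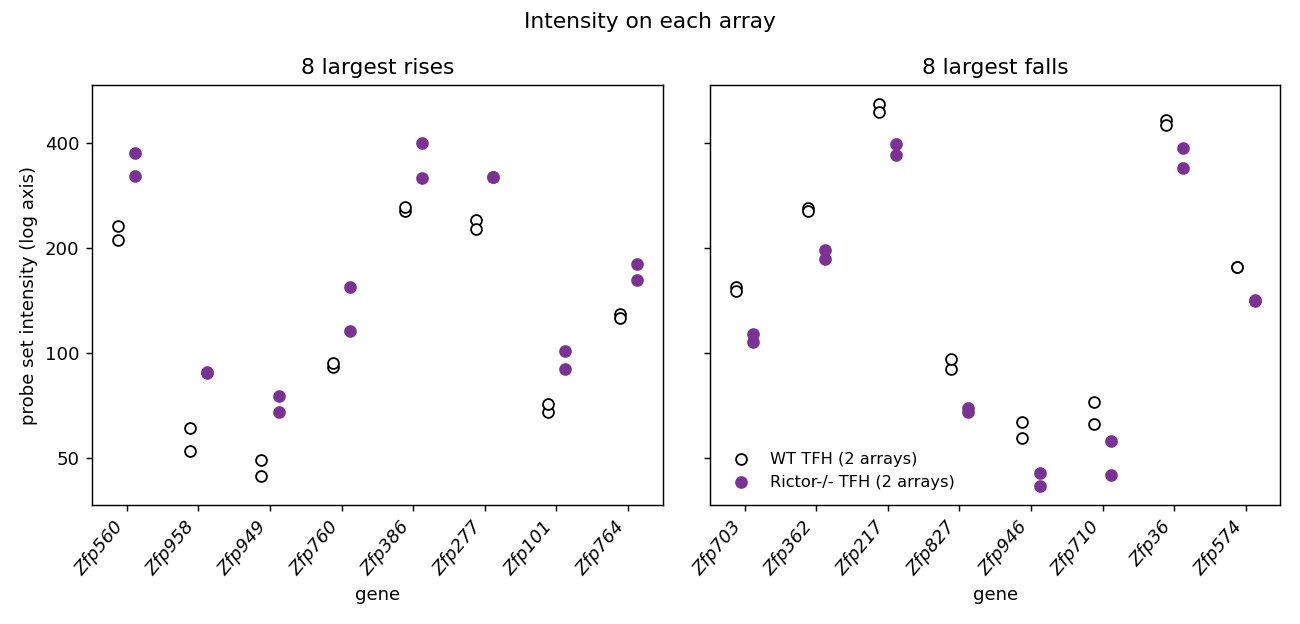
Probe set intensity (log axis) of the 8 members with the largest rise and the 8 with the largest fall, with 1 point per array (2 Rictor-/-, 2 WT). In all 16 genes the arrays of one genotype lie on one side of those of the other, as their selection required.

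The expressed Zfp genes with known roles were then read by function, from lists written with earlier results of these data known. Of 8 members that act on RNA or the ribosome, 3 were lower and none was higher, with a median log2 difference of -0.12. Of all genes at 50 or more, 14.2% were lower and 23.6% higher. The 3 lower members had means above 200, and at 200 or more 906 of 4444 genes were lower and 1222 higher. Zfp36 was the first of these 3. Zfp622, a factor of late large-subunit ribosome maturation, read 2860 and 2859 against 3281 and 3105 (log2 difference -0.16, adjusted p = 0.0176), and Zfp106, an RNA-binding protein needed in motor neurons, 400.2 and 404 against 455 and 459 (-0.18, adjusted p = 0.0300). Over all their probe sets Zfp622 stood at -0.08 and Zfp106 at 0.01, and neither passed (adjusted p = 0.374 and 0.945). Zfp598, the ubiquitin ligase that senses collided ribosomes, differed by -0.10, Zfp346, a double-stranded RNA binder, by -0.14, Zfp326, of the DBIRD splicing complex, by -0.09, Zfp638, an RNA-associated nuclear factor, by 0.11 and Zfp830, a splicing factor, by 0.10, all without passing.

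Because Zfp36 was among them, its paralogues, whose symbols fall outside the rule, and the decay machinery it recruits were read too. Zfp36l1, which shares the AU-rich binding domain with TTP, read 1636 and 1708 in Rictor-/- and 2575 and 2576 in WT TFH cells, a log2 difference of -0.62 (SE 0.04, adjusted p = 1.56e-06). Zfp36l2 read 1238 and 1532 against 1905 and 1824, a log2 difference of -0.43 (SE 0.08, adjusted p = 0.0013). All 3 paralogues were lower with groups apart, although Zfp36l2 averaged over its probe sets stood at -0.12 and did not pass (adjusted p = 0.164). The calls of Zfp36 and Zfp36l2 were lost without WT replicate 1 (-0.30 and -0.40) or WT replicate 2 (-0.35 and -0.46).

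Of 19 genes of the TTP family and AU-rich decay, Zfp36l1 and Zfp36l2 included, 7 were lower and none higher, with a median of -0.15. Of genes at 50 or more 14.2% were lower, but all of the 19 except Mapkapk2 reached a mean of 200. At 200 or more, 906 of 4444 genes were lower and 1222 higher. The other lower genes were the AU-rich binding proteins Hnrnpd (-0.37) and Khsrp (-0.31), the deadenylase subunits Cnot6 (-0.27) and Cnot3 (-0.23), and the decapping enzyme Dcp2 (-0.24). The remaining 12, among them the deadenylase Cnot7 (-0.05) and the exonuclease Xrn1 (-0.19), did not pass. Averaged over its probe sets, Hnrnpd stood at -0.14 and did not pass (adjusted p = 0.111). Khsrp lost its call without WT replicate 1 (-0.28) or WT replicate 2 (-0.35).

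The KRAB zinc finger genes with known targets did not pass the test in either direction. Zfp445, a guardian of imprints, read 986 and 987 against 1032 and 1016 (log2 difference -0.05). Zfp809, which silences murine leukaemia proviruses, read 353 and 311 against 304 and 262 and its groups did not overlap, but at 0.22 it missed the threshold (adjusted p = 0.0679). It passed when only genes at 50 or more were tested (adjusted p = 0.0338) and without Rictor-/- replicate 2 (adjusted p = 0.0218). Zfp568, the repressor of a placental Igf2 promoter, differed by 0.13, and Zfp932, a repressor of endogenous retroviruses, by 0.12.

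Among the genes that KRAB proteins work through, all calls were downward. Of 17 such genes, 5 were lower and none higher, with a median log2 difference of -0.08. Genes at 50 or more had 14.2% lower and a median of 0.03. The 5 lower genes had means above 200, and at 200 or more 906 of 4444 genes were lower and 1222 higher. Trim28 read 665 and 692 in Rictor-/- and 811 and 782 in WT TFH cells (-0.23, SE 0.05, adjusted p = 0.00598). Its call was lost without WT replicate 1 (-0.20) or WT replicate 2 (-0.25). The NuRD remodellers Chd3 (-0.45) and Chd4 (-0.43), the SETDB1 partner Atf7ip (-0.32) and the maintenance DNA methyltransferase Dnmt1 (-0.19) were the others. Setdb1 itself, at 112 and 115 against 119 and 119, did not pass (-0.06). The call of Chd4 was also lost without WT replicate 1 (-0.47) or WT replicate 2 (-0.39), and that of Atf7ip without WT replicate 1 (-0.29).

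Of 9 members with chromatin or promoter roles, Zfp217 and Zfp827 were lower and the other 7 did not pass. Among all genes at 50 or more, 14.2% were lower and 23.6% higher, so this count is a description only. Zfp281, a regulator of pluripotency, came nearest to passing in the upward direction, at 335 and 329 against 307 and 266 (log2 difference 0.20, adjusted p = 0.0549), and it passed when only genes at 50 or more were tested (adjusted p = 0.0282). Zfp410, known as an activator of Chd4, read 236 and 247 against 232 and 246 (0.01), groups that interleaved. Zfp148 (-0.02), Zfp451, a SUMO ligase (-0.09), Zfp592 (-0.15), Zfp644 (0.12) and Zfp687 (0.04) did not pass either.

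The members with lymphocyte roles did not differ beyond their spread. Zfp318, which allows IgD to be made by B cells, read 301 and 276 against 296 and 324 (-0.10). Zfp335, needed for thymocyte maturation, read 164 and 149 against 145 and 168 (0.00). Zfp91, a ubiquitin ligase of the non-canonical NF-kB pathway, read 571 and 648 against 658 and 570 (-0.01), and in all 3 genes the groups overlapped.

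Of the members known from cell division, Zfp207, a spindle protein that stabilises BUB3, read 627 and 787 in Rictor-/- and 598 and 574 in WT TFH cells (log2 difference 0.26, adjusted p = 0.0439). Its call was lost without Rictor-/- replicate 2, where the difference was 0.10 (adjusted p = 0.364), and also without WT replicate 1 (adjusted p = 0.240) or WT replicate 2 (adjusted p = 0.358). The mean over its 6 probe sets was -0.03. Zfp367 differed by 0.15 and did not pass. A list of 13 mitosis genes was higher in full, with a median of 0.69, beside 23.6% higher of all genes at 50 or more. Most of the regulators known from other lineages, such as Zfp42, Zfp423, Zfp521 and Zfp536, lay below an intensity of 50, and Zfp703 alone of that list was expressed.

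After the values were seen, the members were split by their place in the genome, taking as beside another Zfp gene those whose next protein-coding gene on either side in RefSeq order is also a Zfp gene. Of the 76 members beside another Zfp gene, 26 (34.2%) were higher and 5 (6.58%) lower, and the median log2 difference was 0.15. Of the other 74, 12 (16.2%) were higher and 13 (17.6%) lower, and the median was 0.01. The difference between the classes was not tested, since the split was chosen with the values in view. The chromosome with most higher members, also chosen after the values were seen, held 26 members, of which 13 (50%) were higher and 2 lower. Without it, 15 of 57 members beside another Zfp gene (26.3%) were higher and 3 (5.26%) lower. Of all genes at 50 or more, 23.6% were higher and 14.2% lower. The counts of higher members beside another Zfp gene fell to 3 without either WT array, and to 15 and 18 without a Rictor-/- array, and those of lower members to between 0 and 2.

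The dimmer and the brighter members were also counted apart. At intensities of 50 to 200, where 19% of all genes were higher and 6.82% lower with a median of 0.05, 24 of 67 members beside another Zfp gene were higher and 2 lower (median 0.15). Of the 45 others in that range, 6 were higher and 8 lower (median 0.01). At 200 or more, 2 of 9 beside another Zfp gene were higher and 3 lower, against 6 and 5 of 29.

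**Figure D3:**
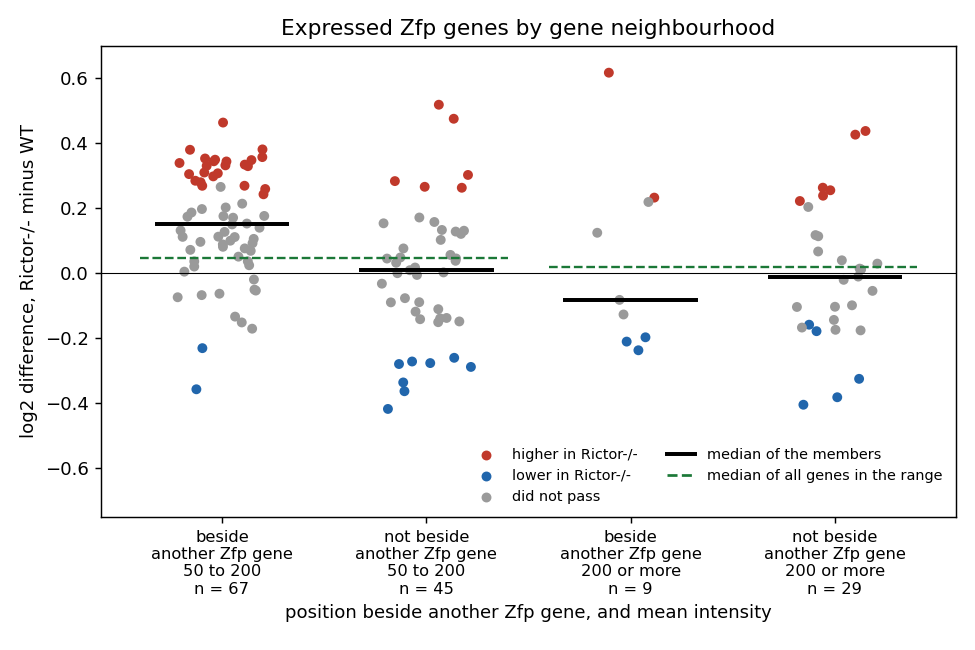
Log2 difference, Rictor-/- minus WT, of each expressed Zfp gene, split by whether the next protein-coding gene is also a Zfp gene and by mean intensity, with black bars for the medians of the members and dashed lines for the median of all genes in the intensity range. The 67 dimmer members beside another Zfp gene centre on 0.15, and the 45 dimmer members not beside one on 0.01.

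Part of the members stood in 10 runs of neighbouring Zfp genes that hold 3 or more of them. Their members were named after the values were seen. Among all genes at 50 to 200, 19% were higher and 6.82% lower, and at 50 or more 23.6% and 14.2%. In the run from Zfp472 to Zfp563 all 3 expressed genes rose. Zfp472 read 207 and 213 against 156 and 167 (log2 difference 0.35, adjusted p = 0.00233), Zfp952 76.0 and 66.0 against 52.6 and 55.8 (0.31, adjusted p = 0.0272) and Zfp763 79.3 and 70.9 against 59.7 and 58.1 (0.28, adjusted p = 0.0347).

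In the run of 8 genes from Zfp760 to Zfp994, 4 of 5 expressed genes rose, by 0.24 to 0.46 on the log2 scale. All 5 lay at 50 to 200, where 19% of all genes were higher. Besides Zfp760 the risen genes were Zfp995, at 73.3 and 83.8 against 55.6 and 61.3 (0.34), Zfp943 and Zfp994, at 106 and 113 against 81.9 and 88.4 (0.31). The run of 20 genes from Zfp455 to Zfp273 held 5 expressed genes, of which Zfp953 (0.35), Zfp429 (0.34) and Zfp87 (0.29) rose and Zfp748, at 0.27, missed the threshold (adjusted p = 0.0640). Zfp953 read 61.5 and 61.1 against 46.1 and 42.9, so that it reached the intensity of 50 only through its Rictor-/- arrays. Zfp429 read 79.4 and 79.2 against 56.5 and 61.6.

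Not every run moved this way. From Zfp677 to Zfp983, Zfp53 was lower, at 311 and 310 against 347 and 369 (log2 difference -0.20, adjusted p = 0.0298), while its neighbours Zfp51 (0.09) and Zfp52 (0.10) did not pass. From Zfp786 to Zfp746, Zfp746 was lower (-0.24) and the other 3 did not pass. In the runs from Zfp180 to Zfp94 and from Zfp709 to Zfp961 none of 3 members passed, and in that from Zfp84 to Zfp146 only Zfp82 (0.30) of 6.

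**Figure D4:**
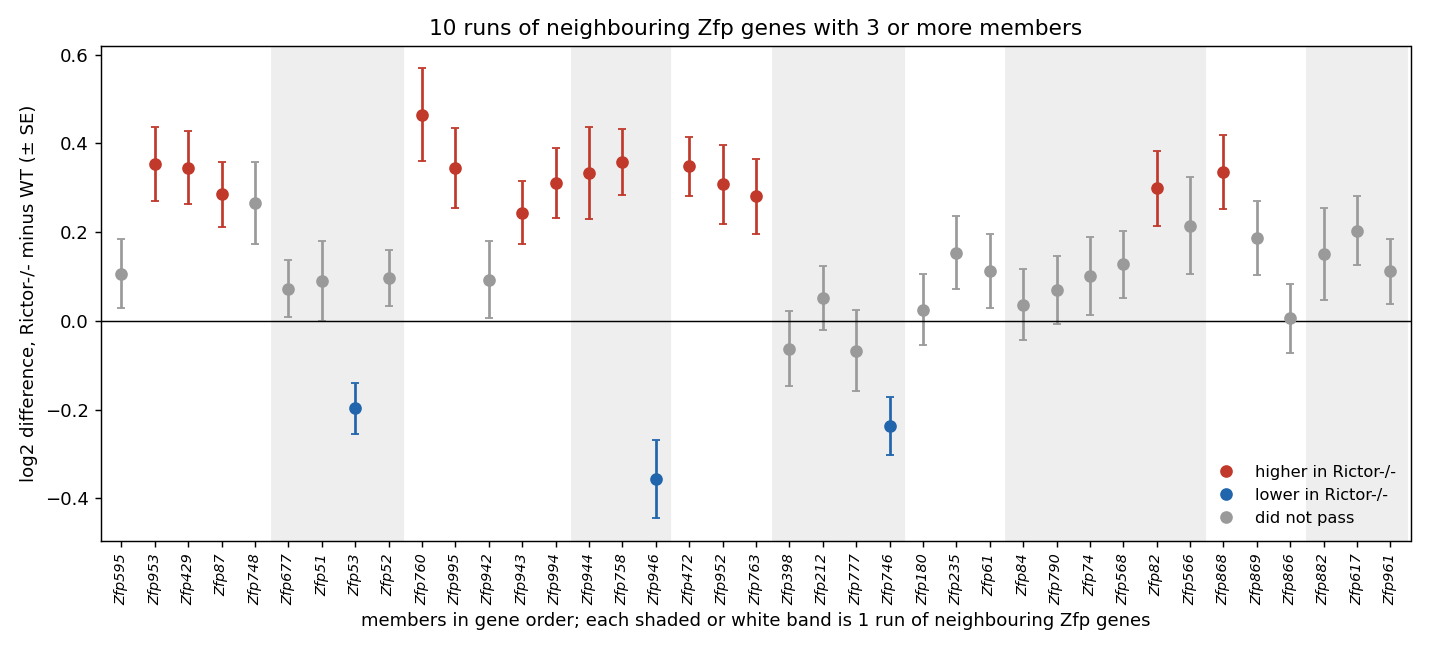
Log2 difference, Rictor-/- minus WT, with its SE, of the expressed genes in 10 runs of neighbouring Zfp genes that hold 3 or more of them, in gene order within each band. All 3 genes from Zfp472 to Zfp763 are higher, and Zfp946 is lower beside Zfp944 and Zfp758, which are higher.

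Of 22 pairs of members that are next to each other, 4 were higher together, 17 had the same sign and 1 was called in opposite directions, where 60 of the 76 members beside another Zfp gene lay above 0. The opposite pair was Zfp758 and Zfp946. Zfp758 read 116 and 115 in Rictor-/- and 87.8 and 85.0 in WT TFH cells (log2 difference 0.36, SE 0.07, adjusted p = 0.00415), whereas Zfp946, given above and expressed at 50 or more only in WT TFH cells, differed by -0.36 (SE 0.09, adjusted p = 0.0116). On the other side of Zfp758, Zfp944 read 57.0 and 61.1 against 50.1 and 37.7 (0.33, SE 0.10, adjusted p = 0.0393), so that its WT mean was also below 50.

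Zfp944 and Zfp758 are head to head, with starts 63 bases apart, and both were higher. Zfp942 and Zfp943, in another of the runs, are head to head with starts 95 bases apart. Zfp943 read 164 and 174 against 146 and 134 (log2 difference 0.24, adjusted p = 0.0287), and Zfp942 read 126 and 105 against 107 and 107 (0.09), groups that interleaved.

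The entire 62 bases between the starts of Zfp944 and Zfp758 recur without a mismatch between those of Zfp942 and Zfp943, as the sequences above show. In windows from 250 bases before to 50 after a start, the longest identical run was 248 of 300 bases between Zfp758 and Zfp943 and 207 between Zfp944 and Zfp942. Among the promoters of 27025 genes, only those of these 4 genes held the 62 bases. Of the remaining member promoters, with 127 compared, one further pair, Zfp595 and Zfp953, shared an identical run of 30 bases or more, of 33. Whether probes of one copy also read the transcript of the other was not tested.

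The shared stretch holds the E-box. Of the 127 members with a promoter in the RefSeq table, 12 (9.45%) held CACGTG, against 11.2% of genes at 50 or more and 7.24% of all promoters. Of the 33 higher members with a promoter, 6 held it, but 3 of these were Zfp758, Zfp943 and Zfp944, and with the shared stretch left out 3 of 30 held it. Zfp946, which was lower, also held one, at the end of the sequence printed above.

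The GC box was found in 57.5% of the member promoters, against 67.2% of genes at 50 or more and 35.9% of all promoters, and the ETS core in 18.9% against 22.6% and 9.12%. ACTACAATT, the core of the site bound by Zfp143, was found in 3 members (2.36%), against 0.953% and 0.433%. The median number of CpG pairs was 16 in the member promoters, 22 in those of genes at 50 or more and 7 in all. It was 14.5 beside another Zfp gene and 18 elsewhere.

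Some genes listed as markers of other cell types moved with the genotype. In bulk RNA a change in the number of cells of a type and a change in RNA per cell cannot be told apart. Over all genes 12.5% were higher and 7.19% lower, and of genes at 50 or more 23.6% and 14.2%. Most markers of these types lay below 50. Of 8 B and plasma cell markers 4 were higher in Rictor-/- TFH cells, summing to 540 to 583 against 241 to 252, with Jchain, of secreted antibody, the largest (378 and 353 against 126 and 113) and Cd79a, of the B cell receptor, at 11.7 or below in all arrays. Of 8 myeloid markers 2 were higher, summing to 382 to 433 against 310 to 335, with Lyz2 at 113 and 102 against 58.1 and 54.7. Of 6 NK and CD8 markers 3 were higher and 1 lower, summing to 2114 to 2305 against 561 to 582. Gzma, at 1998 and 1823 against 359 and 381, made up most of these sums. Prf1, of cytotoxic granules, rose as well (log2 difference 0.71), as did Cd8b1 (139 and 123 against 90.1 and 82.2, 0.53, adjusted p = 0.000605), while Cd8a stood at 23.7 to 25.2 in all arrays. The mitosis genes summed to 4022 to 4041 against 2520 to 2579, and the part of these genes in the values of the Zfp genes was not tested.

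A second probe set at 50 or more existed for 10 of the 38 higher members, of which 8 had the same sign, and for 5 of the 18 lower members, of which 3 had. Of the members that did not pass, 22 had such a probe set and 16 of these the same sign. The intensity of 50 divides genes that hardly differ in level. Just inside it lay Zfp653 (mean 51.2, log2 difference 0.06), Zfp944 (51.5) and Zfp408 (51.9, -0.15), and just outside it Zfp652 (49.5, 0.15), Zfp120 (49.3, 0.27) and Zfp319 (48.8, -0.05). Of the 155 Zfp genes below 50, 11 (7.10%) were higher and 3 (1.94%) lower. Over all 18193 genes 2283 were higher and 1308 lower, but 1928 and 1159 of these lay at 50 or more. The shares over all genes, 12.5% and 7.19%, are therefore no like measure for genes below 50. In 7 members the mean of 1 genotype lay below 50, and 4 of these were higher and 1 lower. Having the genotypes on either side of the cut favours a difference, so this count is a description only.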

How the data were processed

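RNA from sorted TFH cells was labelled and hybridised to Affymetrix mouse arrays by a company. The authors deposited probe set intensities on a linear scale, and per the labels MAS5 and RMA were among the tools, with no role or version given. Column medians of 20.0 to 20.4 show that the arrays were already scaled. Of 45037 probe sets, 34945 carry 1 gene symbol. Intensities became log2(intensity + 16), on which the change of dim genes is understated. Each of 18193 genes was read by its brightest probe set and tested with limma 3.58.1 in R 4.3.3 (lmFit, eBayes with a trend), Benjamini-Hochberg adjusted over all genes, at 0.05. The number of arrays limits the precision. On simulated data the fit called 83.9% of 1.25-fold and 100% of 1.5-fold changes, and 0.0804% of unchanged genes. The simulated noise was independent between arrays, at the spread limma had fitted for each gene, with few genes changed. Folds were set on the log2(intensity + 16) scale. The shares hold for that setting and need not hold for these arrays.

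Members and lists were chosen with earlier results of these data known. Genes named are the 8 largest rises and falls among called members with groups apart, the members of the role lists, the genes beside the intensity threshold, up to 4 genes of the partner and marker lists with the smallest p, and defining genes. Members of runs, neighbouring pairs, the calls of short counts and the other partner genes were named after their values were seen. RefSeq matched all 150 members. A planned split by KRAB domain was not run, since protein sequences were not used here.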

Additional observations from a re-analysis of the deposited data

How the results depend on the processing

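Leaving out each array in turn gave 5 to 26 members higher, 3 to 12 lower and a median of 0.067 to 0.090, for members beside another Zfp gene 3 to 18, 0 to 2 and 0.12 to 0.16, and for the others 2 to 8, 3 to 10 and -0.050 to 0.016. Of the 56 called members, 9 were called without WT replicate 1, 8 without WT replicate 2, 32 without Rictor-/- replicate 1 and 35 without replicate 2, and 5 in every limma fit. Each lone array is assumed to vary like the other group. The methods' t-test (unpaired, one-tailed) called 0 higher and 0 lower after adjustment in each class, with 46 higher and 22 lower at an unadjusted p under 0.05 and a smallest adjusted p of 0.0661.

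Same-numbered arrays deviated with a correlation of -0.086, so the numbers share no more than a label. The replicate block gave 40 higher and 19 lower, with 55 of the 56 called, and Zfp809 and Zfp281 passed in it (adjusted p = 0.0157 and 0.0331). Medians of all members moved to 0.092 with a pseudocount of 1, 0.066 with median centring, 0.055 with quantile normalization, 0.042 with the mean of all probe sets, 0.071 without _x_at probe sets and 0.093 with membership at 25. Beside another Zfp gene they moved to 0.17, 0.12, 0.12 and 0.13 with a pseudocount of 1, quantile normalization, the mean of all probe sets and neighbours within 2 genes. The mean of all probe sets left 8 lower not beside another Zfp gene, and testing all probe sets left 9 lower in all, 1 beside another Zfp gene and 8 elsewhere. Membership at 100 gave 22 higher and a median of 0.040, with 13 higher and a median of 0.17 beside another Zfp gene, in a smaller set. Without the chromosome with most higher members, chosen after seeing the data, 25 were higher (median 0.049). Beside another Zfp gene 15 of 57 (26.3%) were then higher and 3 lower (median 0.13). The mean of all probe sets turned Zfp106 to 0.0088 and Zfp207 to -0.030, neither passing, and the cause was not tested. The split by KRAB domain was not run.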
